A study of Mus musculus with 6 samples.

Results

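The actomyosin genes and targets of serum response factor (SRF) are a set of 34 genes for actins, myosin chains, thin filament proteins, actin cross-linkers, LIM-domain proteins and SRF itself with 2 of its immediate early targets. Each gene was represented by the brightest of its probe sets that carry its symbol alone, by the mean over the 6 arrays. All 34 had such a probe set and all passed the filter on dim probe sets, out of 18193 genes with a probe set of their own and 13038 genes tested. Transcripts were measured with Affymetrix whole-genome mouse arrays in mouse embryonic fibroblasts (MEFs), cells grown out of whole-embryo tissue that can hold more than 1 cell type. The strain was C57BL/6, the embryos were of embryonic day 13.5, and cells were taken at passage 3 from medium with 10% fetal calf serum, which itself stimulates SRF. One group was 3 wild-type cultures (Zmpste24+/+) and the other 3 cultures without the metalloprotease that trims prelamin A (Zmpste24-/-); no other allele or agent is named. The labels number the cultures of each genotype 1, 2 and 3 and speak of 3 pairs, but give neither the meaning of a number nor the number of embryos behind a culture, so p-values measure the spread between these cultures only.

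SRF is a transcription factor that binds the CArG box, a short DNA element in the promoters of cytoskeletal and immediate early genes. Myocardin-related cofactors (MRTFs) bind monomeric actin and are released to join SRF as actin polymerises, so that filament assembly feeds back on the genes of the filaments. In fibroblasts the products of these genes form stress fibres and focal adhesions, and several are markers of smooth muscle and of myofibroblasts.

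Values are signal, the brightness of a probe set after each array was scaled to the same trimmed mean of 500, and the median over probe sets lay between 56.3 and 70.5 in the 6 arrays. Zmpste24 read 3849.9, 2249 and 2043 in wild-type cultures 1, 2 and 3 and 365, 182 and 226 in the knockout cultures, lower in each knockout culture than in any wild-type one. The 2 arrays numbered 1 stood apart from the other 4 (r = 0.985 with each other across probe sets, and 0.927 to 0.934 with the others), and 53.3% of all genes passed the test between them and the rest. Xist read 69.3 and 43.7 in wild-type cultures 2 and 3 and 4766 to 6669 in the other 4, while the Y-linked Eif2s3y read 531 and 1341 in those 2 and at most 15.7 elsewhere. The genotypes thus differ in sex within numbers 2 and 3 but not within number 1, and the part of sex in the genotype values was not tested. Sex is also uneven between number 1 and the rest, as only wild-type cultures 2 and 3 were male by these genes. The fibroblast marker Col1a2 was bright in all 6 arrays (19556 to 21793). The 10 listed fibroblast markers were not all bright (lowest signal 292), and some differed by culture number, as given below.

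The design asks what loss of Zmpste24 changes in the transcripts of early-passage fibroblasts. None of the 34 genes passed the test between the genotypes (limma, Benjamini-Hochberg adjusted p under 0.05; 0% of all genes passed), and 0 had an unadjusted p under 0.05 (1.04% of all genes). Zmpste24 itself did not pass that fit (log2 difference -3.31, SE 0.34, adjusted p = 0.987). The values lay mostly just below 0: 28 of 34 genes read lower in the knockout mean (51% of all genes did), with a median log2 difference of -0.10 (all genes -0.0036) and a range from -0.40 to 0.25. In this bulk measurement, fewer cells of a type and less RNA per cell cannot be told apart.

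The count of 28 moved with single arrays. It was 7 without Zmpste24-/- replicate 1 and 16 without wild-type replicate 2, with medians of 0.082 and 0.023, and 22 to 30 without any other array. Leaving out any array, whichever it is, leaves the genotypes with unequal shares of number 1. Within same-numbered pairs, where the number cancels, 27, 27 and 20 of the 34 genes were lower in the knockout for numbers 1, 2 and 3 (49.6%, 52.1% and 49.7% of all genes), with medians of -0.11, -0.056 and -0.019. Lower in every pair were 17 genes (16.2% of all genes), and higher in every pair were 3 (15.8% of all genes): Myl6, Fhl2 and Fos. With the number as a block in the fit, 0 of 34 passed (0.023% of all genes; Zmpste24 did, adjusted p = 4.02e-05), 8 were lower at an unadjusted p under 0.05 (4.49% of all genes) and 1 was higher (4.8% of all genes), and the smallest adjusted p was 0.430, that of Lmod1. The same-numbered pairs all correlated in their deviations from the group means (0.83, 0.59 and 0.57). Wild-type culture 3 with knockout culture 2 and wild-type culture 2 with knockout culture 3 also did (0.55 and 0.49). These correlations therefore cannot settle how cultures 2 and 3 pair.

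By culture number the values lay further from 0. Of the 34 genes, 26 fell in the cultures numbered 1 against those numbered 2 and 3 (24.2% of all genes fell) and 2, Myh11 and Fhl2, rose (29.1% of all genes rose), at an adjusted p under 0.05 in a fit with the genotype as a term. The median log2 difference was -0.38 for the 34 genes and 0.05 for all genes tested. This contrast was chosen after the arrays numbered 1 had been seen to stand apart and rests on 2 arrays against 4, so its p-values describe these cultures and are no independent test. In 28 genes the 2 arrays numbered 1 did not overlap the other 4, 26 of them lower (29% of all genes) and 2 higher (34.6% of all genes); the other 6, Actg1, Myl9, Myh10, Mylk, Cald1 and Fos, overlapped. Of the 34 genes 32 lay below 0 (46.8% of all genes), though Acta2, Actg1, Myl9, Myh10 and Cald1 turned to between 0.0053 and 0.12 after quantile normalization. Centring each array on its median moved the median of all genes by -0.13 and shifts every gene alike. Relative to the median of all genes the 34 stood at -0.43, and at -0.24 after quantile normalization. The share of probe sets called lower among all those called was 46.4% as deposited and 58.3% after that centring. Without Zmpste24-/- replicate 1, which leaves a single array numbered 1, 21 genes passed and Acta2, Myh11, Lmod1, Tpm1, Tpm2, Smtn and Fhl2 did not; Lmod1 was also lost without wild-type replicate 1 or 3 and without Zmpste24-/- replicate 3.

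Between numbers 2 and 3, 0 of the 34 genes passed (0.0153% of all genes). An unadjusted p under 0.05 was found for 2 of the 34 and for 826 of all 13038 genes. The 2 were Tagln2, higher by 0.63 in number 2, and Mylk, lower by 0.40 there. In the interaction of genotype with number 1, 0 of 34 passed (0.192% of all genes). An unadjusted p under 0.05 was found for 2, Cnn1 (difference of differences -0.67, adjusted p = 0.118) and Ankrd1 (0.39, adjusted p = 0.831). The share of all genes at that unadjusted threshold was not computed for the interaction, so this count has no background beside it. The genotypes differ in sex in numbers 2 and 3 but not in number 1, so the interaction cannot separate sex from culture number.

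**Figure D1:**
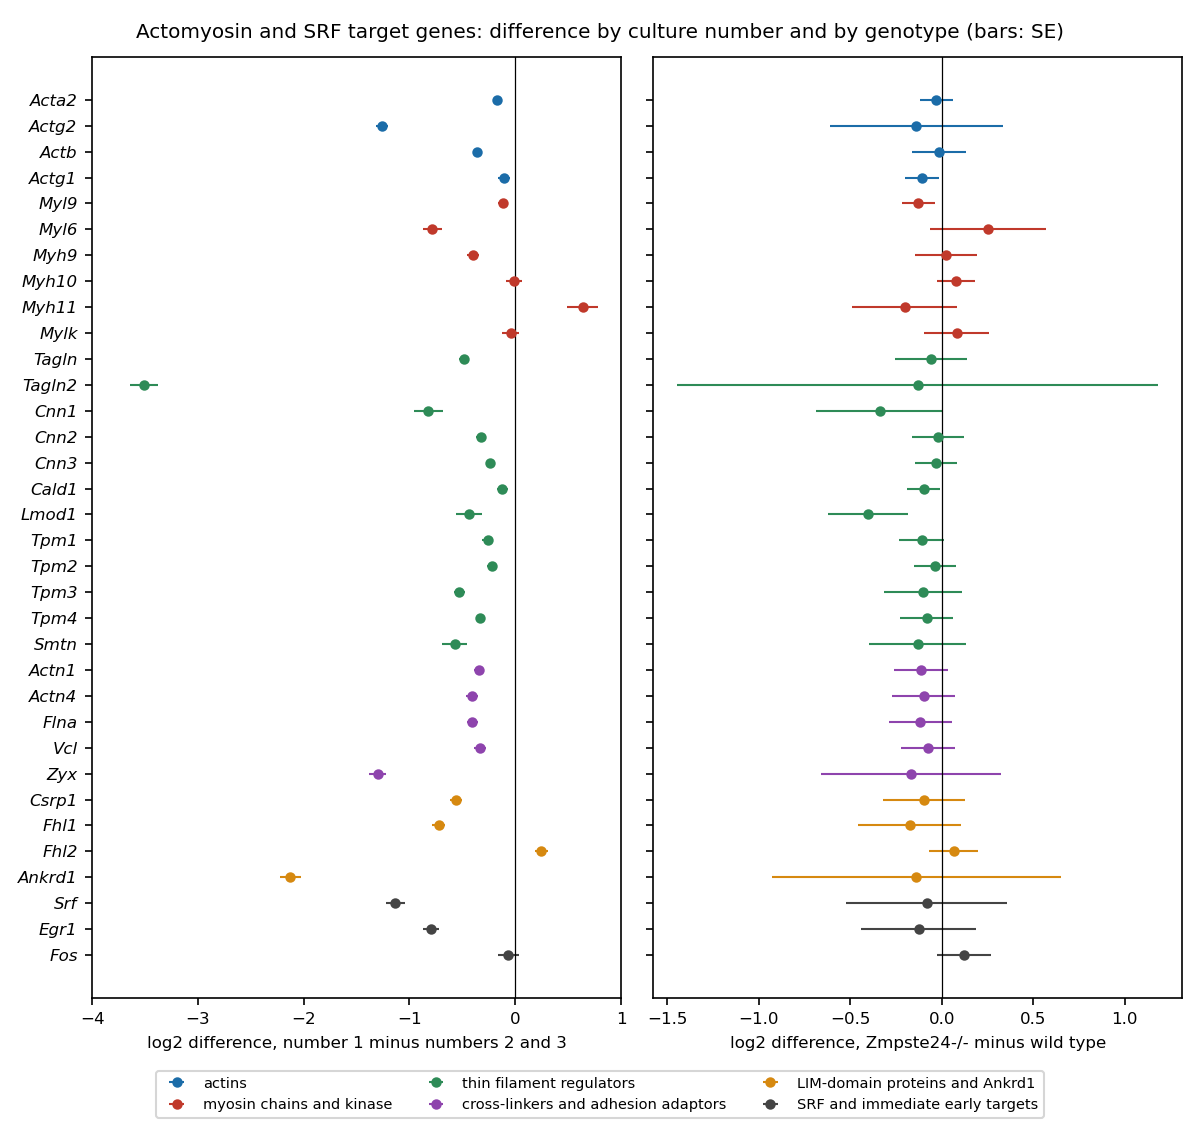
Log2 difference of the 34 genes with its standard error, for the cultures numbered 1 minus those numbered 2 and 3 on the left and for Zmpste24-/- minus wild type on the right (fit without a block), coloured by role; the 2 horizontal axes have different scales. On the left 26 genes lie below 0 and past the threshold, from Tagln2 at -3.51 to Acta2 at -0.17, while on the right every value lies between -0.40 and 0.25.

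Srf, the factor itself, was among the genes that fell most in number 1. Its signal was 663, 1617 and 1478 in wild-type cultures 1, 2 and 3 and 665, 1517 and 1317 in the knockout cultures. Both cultures numbered 1 lay far below the other 4, at 44.8% of the mean of the other 4 (log2 difference -1.14, SE 0.09, adjusted p = 3.36e-05), and the genotype difference was -0.083 (SE 0.44). Egr1, a zinc finger factor induced within minutes by serum, read 1724, 3180.4 and 2919 in wild type and 1609, 2701 and 2825 in the knockout, with no overlap between number 1 and the rest (-0.79, SE 0.08, adjusted p = 8.11e-05). Fos, the AP-1 subunit induced alongside it, did not follow: it read 686, 683 and 715 against 719, 800.1 and 753, a difference by number of -0.067 (SE 0.10, adjusted p = 0.624). Fos was also the only gene of the 34 whose genotypes did not overlap, higher in all 3 knockout cultures by 0.12 (SE 0.15, unadjusted p = 0.437; 2.1% of all genes did not overlap in that direction), and 0 of the 34 did so in the lower direction (2.65% of all genes).

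Promoter sequences were searched for an exact form of the SRF element next to each gene's start. In RefSeq promoter windows (GRCm38.p6, 250 bases before to 50 after a gene's start), a CArG box, written here as CC, 6 bases each A or T, and GG, and thus the same on both strands, was present in 8 of the 29 genes with a window (27.6%), against 1.81% of all 27025 genes with a window of that length. Since the 34 genes were picked as SRF targets, that share is no finding of these arrays. The 8 were Actg1, Cnn2, Fhl1, Fhl2, Myl6, Myl9, Srf and Vcl; Tagln, Myh11, Actg2, Actb and Egr1 were not in the table. The following 6 stretches, the CArG box in capitals with up to 40 bases on each side and ended at the gene's start where that comes first, were chosen because they span the responses: Srf, Vcl, Fhl1 and Myl6 fell in number 1, Actg1 did not pass and Fhl2 rose.
Srf, chr17:46556175-46556284, minus strand: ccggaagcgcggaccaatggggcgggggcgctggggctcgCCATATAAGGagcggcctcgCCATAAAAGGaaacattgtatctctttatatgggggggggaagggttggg
Vcl, chr14:20929148-20929220, plus strand: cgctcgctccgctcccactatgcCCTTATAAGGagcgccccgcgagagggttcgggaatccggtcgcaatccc
Fhl1, chrX:56779541-56779630, plus strand: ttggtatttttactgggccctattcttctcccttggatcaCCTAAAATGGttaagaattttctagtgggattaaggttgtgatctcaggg
Myl6, chr10:128493010-128493099, minus strand: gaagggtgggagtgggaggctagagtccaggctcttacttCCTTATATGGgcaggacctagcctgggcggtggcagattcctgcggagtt
Actg1, chr11:120348536-120348625, minus strand: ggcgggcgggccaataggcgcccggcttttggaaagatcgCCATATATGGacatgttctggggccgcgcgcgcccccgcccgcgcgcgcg
Fhl2, chr1:43163962-43164032, minus strand: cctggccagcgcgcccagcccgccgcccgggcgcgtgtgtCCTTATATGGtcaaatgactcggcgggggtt
Srf held 2 boxes, 10 bases apart, starting 82 and 62 bases before its start site. In Vcl the box began 227 bases upstream and in Fhl2 31 bases upstream. Fhl2 has a second window with another box. Of the 8 genes with a box 5 fell in number 1 with a median of -0.33, and of the 21 without one 17 fell with a median of -0.40. A window without these letters says nothing of elements elsewhere, such as those in introns. Only exact matches were counted, so a window counted as without a box can still hold a variant form of it.

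The 2 genes with the largest falls, Tagln2 and Ankrd1, held no CArG box of that exact form in their windows. Each had 2 copies of GGAATG, the core of the TEAD element through which the YAP and TAZ coactivators act. The share of all genes with 2 copies was not computed. GGAATG, read on both strands (CATTCC on the other), was in 12 of the 29 genes (41.4%) and in 16.6% of all genes with a window. By its letters it can overlap a CArG box at a shared GG or CC; Vcl alone held both motifs. The copies are in capitals.
Tagln2, chr1:172500088-172500211, plus strand: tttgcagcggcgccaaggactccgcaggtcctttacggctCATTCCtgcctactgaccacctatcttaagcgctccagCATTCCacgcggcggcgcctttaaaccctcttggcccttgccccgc
Ankrd1, chr19:36119922-36120094, minus strand: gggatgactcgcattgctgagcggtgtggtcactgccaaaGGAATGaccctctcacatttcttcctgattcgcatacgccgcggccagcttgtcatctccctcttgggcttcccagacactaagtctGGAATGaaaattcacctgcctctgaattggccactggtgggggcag
The copies began 118 and 80 bases before the Tagln2 start and 210 and 123 bases before that of Ankrd1. Of the 12 genes with the motif 9 fell in number 1 (median -0.37), and of the 17 without it 13 fell (median -0.34). Zyx and Srf, which also fell far (-1.30 and -1.14), were among those without it. These matches are descriptions of the sequence and not binding sites shown by these data.

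Among the actins, the isoforms differed in how far they fell. Actg2, the smooth muscle gamma actin, read 4602, 10806 and 9988 in wild type and 3842, 10289 and 9389 in the knockout. Both cultures numbered 1 were far below the other 4, at 41.7% of their mean (-1.26, SE 0.06, adjusted p = 4.06e-06). Actb, cytoplasmic beta actin, read 13964, 17044 and 17000.4 against 12937, 17464 and 17370.4, a smaller fall without overlap (-0.36, SE 0.05, adjusted p = 0.000433), but a second Actb probe set did not pass (-0.02, adjusted p = 0.882). Acta2, smooth muscle alpha actin and the usual myofibroblast marker, read 21457, 24651 and 23146 against 20696, 23764 and 23414. Its fall was 0.17 on the log2 scale (SE 0.04, adjusted p = 0.00581), it was lost after quantile normalization, and a much dimmer Acta2 probe set rose by 0.40 (adjusted p = 0.0376). Actg1, cytoplasmic gamma actin, read 21751, 25985 and 21636 against 20597, 21581 and 21966, and number 1 overlapped the rest. All 4 actins had a genotype difference below 0, from -0.14 to -0.015, though Acta2 and Actb turned to 0.02 after quantile normalization.

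Myosin genes moved in both directions. Myl6, the essential light chain, read 609, 1031 and 1089 in wild type and 728, 1244 and 1291 in the knockout. It fell in number 1 without overlap (-0.78, SE 0.09, adjusted p = 0.000209) and read higher in the knockout by 0.25, 0.27 and 0.24 in pairs 1, 2 and 3 (with the block, limma adjusted p = 0.489 and unadjusted p = 0.0173). Its 2 brighter probe sets carry several symbols and were not used. Myh9, the heavy chain of non-muscle myosin IIA, read 10471, 14782 and 13992 against 11210.5, 13512 and 14982 and fell in number 1 (-0.40, SE 0.06, adjusted p = 0.000735). Myh10, the heavy chain of the IIB form, read 10119.5, 9749 and 8804 against 9387, 10019 and 10860.2, with number 1 inside the range of the rest (-0.012, SE 0.08). Myh11, the smooth muscle heavy chain, went the other way: 375, 268 and 218 against 336, 190.5 and 219, higher in both cultures numbered 1 than in any other (0.64, SE 0.15, adjusted p = 0.0078). Myl9, the regulatory light chain phosphorylated for contraction, read 15916, 17019.5 and 16219.8 against 13861, 16377 and 14848, lower in the knockout in every pair (-0.13; with the block, limma adjusted p = 0.489 and unadjusted p = 0.0175) and not past the threshold by number (adjusted p = 0.0668). Mylk, the kinase of that light chain, read 1961, 1654 and 2235 against 1945, 1855 and 2393, a genotype difference of 0.08 (SE 0.18) with no order by number 1.

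**Figure D2:**
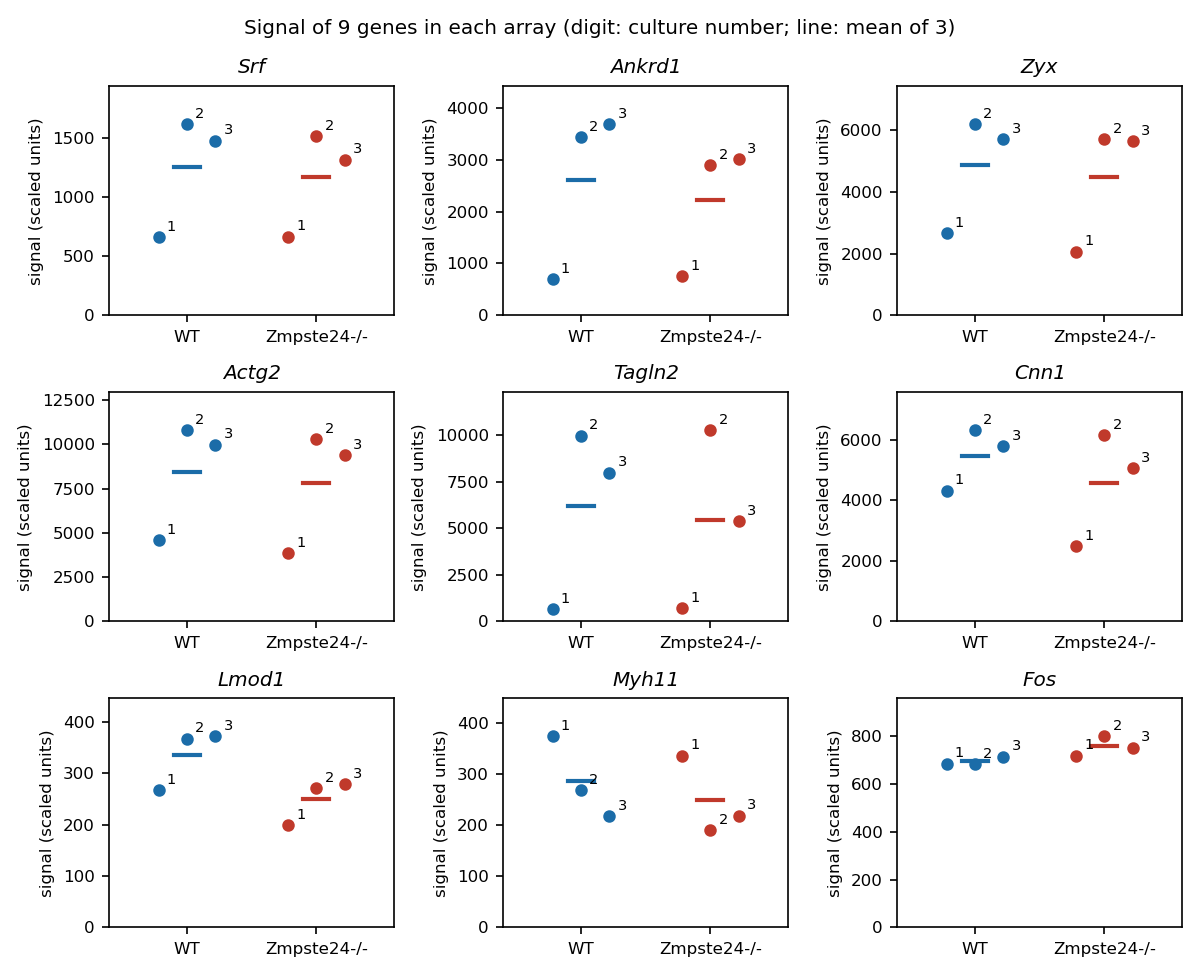
Signal (scaled units, linear axis from 0) of 9 of the genes in each array by genotype, with the culture number beside each point and the mean of 3 as a line. Culture 1 lies below cultures 2 and 3 in both genotypes for Srf, Ankrd1, Zyx, Actg2, Tagln2, Cnn1 and Lmod1, above them for Myh11, and among or near them for Fos.

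Of the 12 thin filament genes, 11 fell in number 1 (24.2% of all genes fell) and Cald1 did not pass; all 12 had a genotype difference below 0, though Cnn2 and Cnn3 turned to 0.02 after quantile normalization. Tagln2, transgelin 2, the non-muscle relative of SM22, read 666, 9971 and 7978 in wild type and 732, 10255 and 5373 in the knockout. Number 1 was at 8.32% of the mean of the others, 12.0-fold lower (-3.51, SE 0.13, adjusted p = 2.49e-06), and a second probe set of the gene gave -2.04 (adjusted p = 3.34e-06); the first carries a suffix that marks probes shared with other transcripts. Tagln, SM22 itself, fell from 17904 and 16380.1 to 12713 in wild type and from 17214 and 16541 to 11557 in the knockout (-0.49, SE 0.05, adjusted p = 8.08e-05). The 3 calponins, which bind actin and slow actomyosin sliding, differed in number 1 by -0.82 for Cnn1, the smooth muscle form, -0.33 for Cnn2 and -0.24 for Cnn3 (adjusted p = 0.00136, 0.000345 and 0.00194). Cnn1 read 4320.1, 6318 and 5798 against 2497, 6152 and 5077. The lowest of its 6 values was that of knockout culture 1, and its genotype difference was -0.79 in pair 1 but -0.038 and -0.19 in pairs 2 and 3. Cnn2 read 13084, 16931 and 15601 against 12727, 16510.5 and 15784, and Cnn3 read 12048, 14550.3 and 13864 against 11779.5, 14159.8 and 13672. Other Cnn3 probe sets gave -0.26 and -0.21 by number, which passed. The rest gave -0.11, -0.03 and -0.36, which did not (limma adjusted p = 0.252, 0.809 and 0.0853).

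Lmod1, leiomodin 1, which nucleates actin filaments in smooth muscle, had the largest genotype difference of the 34 genes. Its signal was 268, 368 and 373 in wild type and 199.9, 271 and 279.8 in the knockout. The knockout was lower by 0.40, 0.42 and 0.39 in the 3 pairs (mean -0.40, SE 0.22, unadjusted p = 0.112; with the block SE 0.12, unadjusted p = 0.00881 and adjusted p = 0.430), yet the genotypes overlap, because wild-type culture 1 lies below knockout cultures 2 and 3. By number it fell by 0.44 (SE 0.12, adjusted p = 0.0196). Smtn, smoothelin, a marker of contractile smooth muscle, read 643, 863 and 813 against 485, 853 and 821 and fell in number 1 (-0.57, SE 0.12, adjusted p = 0.0048). Cald1, caldesmon, which tethers myosin to actin, read 16117, 18904 and 17562 against 15840.2, 16109 and 17066, with numbers that overlap (-0.12, SE 0.05, adjusted p = 0.0909). Another bright Cald1 probe set did pass by number (-0.13, limma adjusted p = 0.0332), and the other tested ones did not.

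The 4 tropomyosins, coiled coils that lie along the filament and decide which partners bind it, all fell in number 1 without overlap. Tpm3 fell most, with 9239, 14494 and 12541 in wild type and 8739.8, 12600.1 and 12319 in the knockout (-0.53, SE 0.05, adjusted p = 9.47e-05). Tpm4 read 11029, 14319 and 13303 against 10347, 13218 and 12965 (-0.33, adjusted p = 0.00047). Tpm1 read 13523, 16169 and 14913 against 11840.5, 14829.6 and 14793 (-0.26, adjusted p = 0.00292). In Tpm2 the values were 15584, 18381 and 16628 against 14425, 17823 and 17142 (-0.22, adjusted p = 0.00449, lost after quantile normalization). The probe sets of a tropomyosin gave unequal differences: those of Tpm3 gave -0.53, -1.10, -1.18, -2.75 and -0.51, and 1 of Tpm2 gave 0.28 (adjusted p = 0.132).

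All 5 cross-linkers and adhesion adaptors fell in number 1 (24.2% of all genes fell), and all 5 were lower in the knockout in each of the 3 pairs (16.2% of all genes were). Some of these pair differences were close to 0, such as -0.0095 and -0.0038 for Vcl in pairs 2 and 3 and -0.030 for Flna in pair 3. Zyx, zyxin, which moves to strained stress fibres and recruits actin polymerising factors, read 2670.1, 6189 and 5712 in wild type and 2068, 5702 and 5639 in the knockout. Number 1 was at 40.8% of the others (-1.30, SE 0.08, adjusted p = 1.17e-05), the genotype difference was -0.17 (SE 0.49), and it came to -0.37, -0.12 and -0.018 in the 3 pairs. The remaining 4 fell by a similar amount, 0.33 to 0.41 on the log2 scale. Actn1, an alpha-actinin that bundles filaments, read 11873, 15244 and 14199 against 10661, 13937 and 13704 (-0.34, adjusted p = 0.000434). Actn4, the other non-muscle alpha-actinin, read 9554, 12202 and 11784 against 8278, 11839.6 and 11424 (-0.41, adjusted p = 0.000402). Flna, filamin A, which holds crossing filaments at wide angles, read 7603, 10149.5 and 9376 against 6704, 9209 and 9182 (-0.41, adjusted p = 0.000421). Vcl, vinculin, which links talin to actin at focal adhesions, read 13277, 15577 and 15542 against 11433, 15474 and 15501 (-0.33, adjusted p = 0.00144). In each of these 4 both cultures numbered 1 lay below the other 4, and knockout culture 1 was the lowest array of all. Genotype differences ran from -0.17 to -0.076 in the 5 genes; Actn1 and Flna had block p-values of 0.0295 and 0.0476 before adjustment and 0.521 and 0.554 after it.

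The LIM-domain genes and Ankrd1 held both a large fall and a rise. Ankrd1, an ankyrin repeat protein of the sarcomere and nucleus that is also a standard YAP target, read 699, 3437 and 3682 in wild type and 762, 2899.9 and 3005 in the knockout. Number 1 was at 22.4% of the others, 4.45-fold lower (-2.13, SE 0.10, adjusted p = 4.22e-06), and its second probe set gave -2.03. Fhl1, a LIM protein of muscle, read 7765, 12126 and 11916 against 6299, 11591 and 10671 (-0.72, SE 0.06, adjusted p = 3.75e-05) and was lower in the knockout in every pair (-0.18; with the block, limma adjusted p = 0.477 and unadjusted p = 0.0131). Csrp1, which binds alpha-actinin and zyxin, read 7994, 11279 and 10854 against 6883, 10876 and 10700.0 (-0.56, SE 0.06, adjusted p = 0.000108). Fhl2, an SRF target that can itself bind SRF, was the exception: 5113, 4472 and 4405 against 5578, 4490.1 and 4610.5, higher in both cultures numbered 1 (0.25, SE 0.06, adjusted p = 0.00937, lost after median centring).

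**Figure D3:**
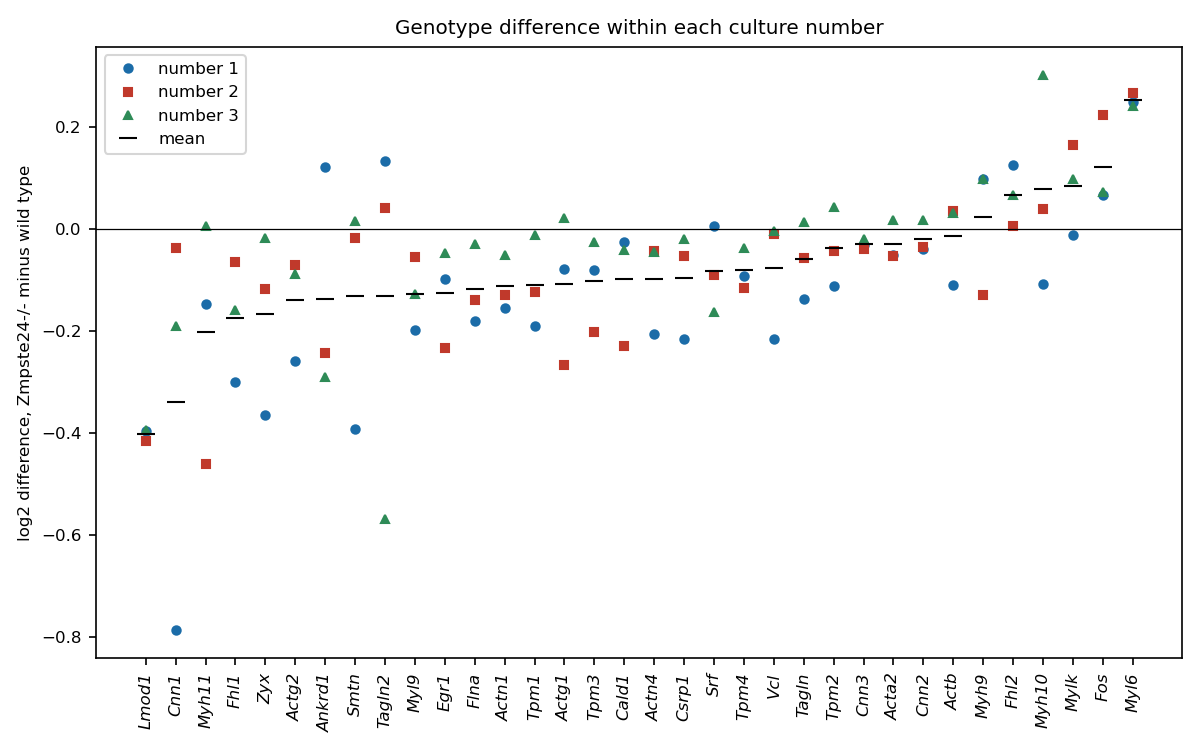
Log2 difference of Zmpste24-/- minus wild type within each culture number (points) and its mean (dash) for the 34 genes, ordered by the mean. The 3 points of Lmod1 lie together near -0.40 and those of Myl6 near 0.25, while those of Cnn1 run from -0.79 to -0.038.

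Several of the genes have more than 1 probe set, and the brightest was not always the one with the largest difference. The 34 genes have 74 probe sets with their symbol alone, of which 68 were tested. In number 1, 47 of the 68 were called lower and 3 higher. Of all 27022 probe sets tested, 12800 were called by number, 5939 of them lower. Between the genotypes 0 of the 68 were called with or without the block (smallest limma block adjusted p = 0.282). Without the block 1 of the 68 had an unadjusted p under 0.05 (349 of all 27022 did). With it 15 of the 68 did (4.49% of all genes lower and 4.8% higher, by brightest probe set). In 12 of the 16 genes with several tested probe sets, all went the same way by number. In 10 of the 16 the brightest had a smaller difference than the median of the others. The 23 genes with a mean signal of 5000 or more had a median difference by number of -0.34, and the 11 dimmer ones -0.57. Whether bright probe sets understate differences here was not tested.

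**Figure D4:**
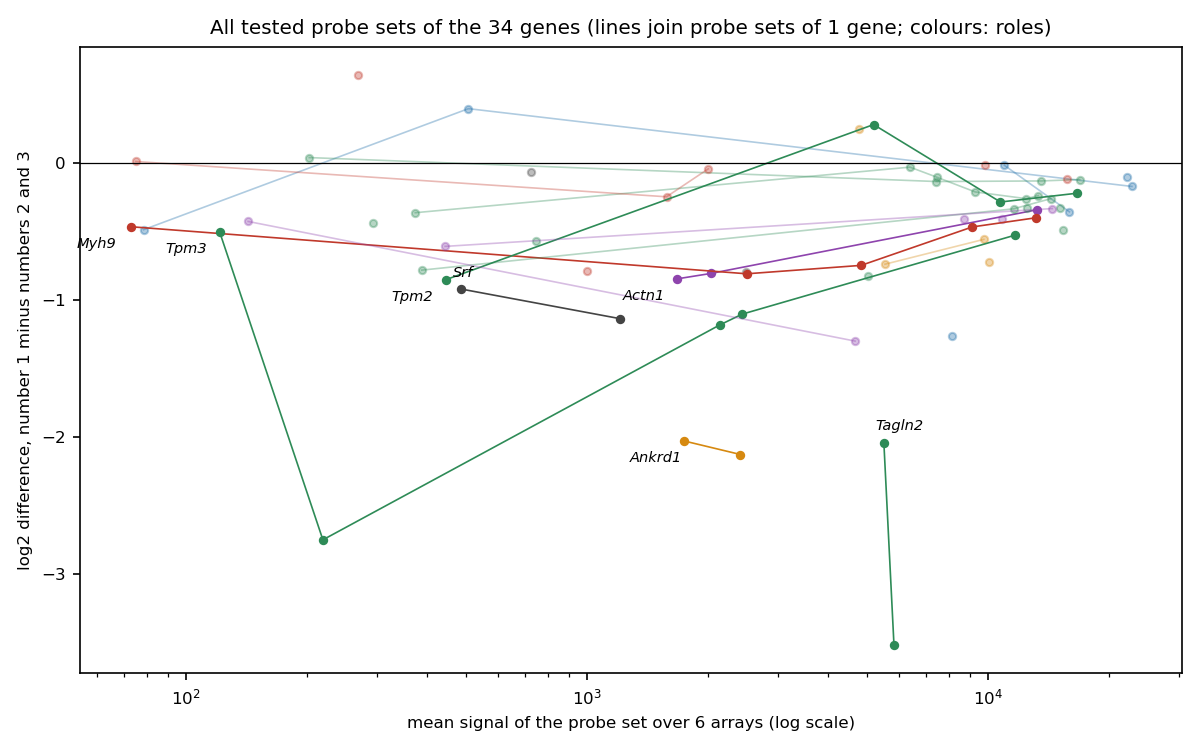
Log2 difference of number 1 minus numbers 2 and 3 for every tested probe set of the 34 genes against its mean signal over 6 arrays (log axis), with lines joining probe sets of 1 gene and colours for roles as in the plot of all 34 genes. The 2 Tagln2 probe sets lie at -3.51 and -2.04, the 2 of Ankrd1 near -2.1, and the 5 of Tpm3 between -0.51 and -2.75.

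Beyond the 34 genes, the pathway was read in lists of its other members, beside 24.2% of all genes that fell in number 1 and 29.1% that rose. Of 7 genes for SRF and its cofactors, 2 fell in number 1 (Srf and the ternary complex factor Elk4, -0.47, adjusted p = 0.00406) and 1 rose (Mrtfb, 0.31, adjusted p = 0.012), and Mrtfa read 1311, 1191 and 1119 against 1132, 1400.0 and 1240.4 with no separation by number; these counts are near the shares of all genes. Of 20 other tested actin and sarcomere genes 14 fell and 0 rose, among them Csrp2 at -1.71 and Itga5, an integrin chain for fibronectin, at -1.72. Of 19 other immediate early genes 14 fell and 0 rose, with Ccn2, Ier2 and Fosl1 at -0.91, -1.28 and -2.09. The medians of these 3 lists were -0.018, -0.60 and -0.71, beside -0.38 for the 34 genes and 0.05 for all genes.

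Between the genotypes 0 genes of these lists passed, with or without the block, and 0 had an unadjusted p under 0.05 without it. With the block such p-values were found for 0 of the SRF cofactors, for 5 lower and 1 higher of the 20 actin and sarcomere genes, and for 2 lower and 1 higher of the 19 immediate early genes (4.49% of all genes lower, 4.8% higher). Acta1, skeletal alpha actin, came nearest. It read 605, 3871 and 2903 in wild type and 314, 2479 and 1691 in the knockout, lower by 0.91, 0.64 and 0.77 in the 3 pairs (-0.78; with the block, limma adjusted p = 0.0672 and unadjusted p = 1.74e-05), with genotypes that overlap because it also fell in number 1 to 16.8% of the others.

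Markers of other processes and cell types were counted in the same way, against 24.2% of all genes that fell in number 1 and 29.1% that rose. All 11 tested mitosis genes fell in number 1 (median -2.27), Mki67 reading 486 and 493 there and 2387 to 2923 elsewhere. Of 13 tested macrophage markers 12 rose and 0 fell (median 2.24); the summed signal of the list was 8232 and 15546 in the cultures numbered 1 and 1609 to 2599 in the others, and C1qa was at 3.18 to 9.02 in those others. Of 10 fibroblast markers 5 rose and 3 fell, with a list median of 0.37. The matrix proteoglycans Dcn and Lum lay far above that median, higher by 2.91 and 3.84. Between the genotypes 1 of the 10, Thy1, had an unadjusted limma p under 0.05 (1.04% of all genes). It was lower in the knockout without overlap (-0.29, unadjusted p = 0.0451, adjusted p = 0.999854). Of 8 smooth muscle and pericyte markers 3 fell and 2 rose. The skeletal and cardiac list had 3 of 5 tested genes lower, and Myod1 read at most 48.2. Endothelial and epithelial markers gave 1 fall each among 5 and 4 tested, and the endothelial Pecam1 read at most 18.1. The summed signals by genotype overlapped for each of these cell type lists except the endothelial one (598 to 682 in wild type, 725 to 887 in the knockout). RNA quality differed slightly: the ratio of the 3' to the 5' control probe set of Actb was 1.24 to 1.36 in number 1 and 1.17 to 1.22 in the rest, and that of Gapdh 0.753 to 0.757 and 0.762 to 0.772. The part of proliferation, of macrophages, of sex and of RNA quality in the falls of the 34 genes was not tested.

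**Figure D5:**
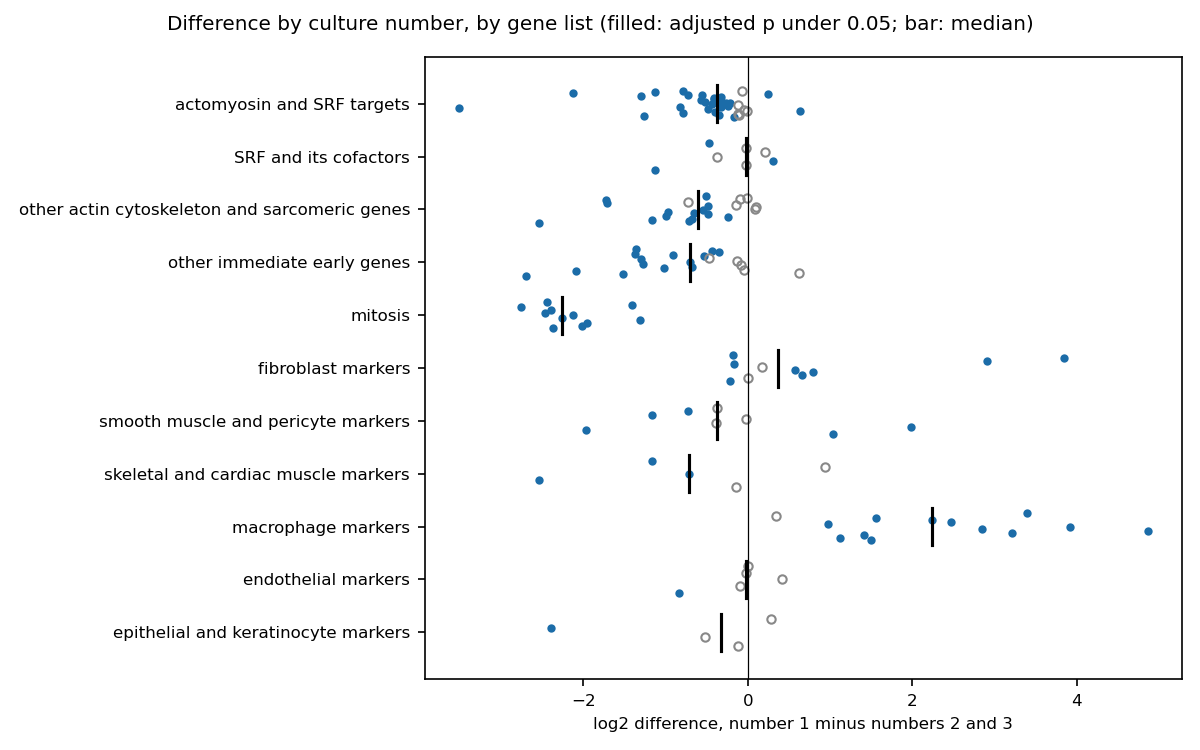
Log2 difference of number 1 minus numbers 2 and 3 for each tested gene of the 34 and of 10 further lists (filled points passed the test, open ones did not; black bar, median). The median is -0.38 for the 34 genes, -2.27 for mitosis genes and 2.24 for macrophage markers.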

How the data were processed

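RNA of 6 mouse embryonic fibroblast cultures, 3 per genotype, was measured on 1 array each. Per the submitters' processing notes GCOS, Affymetrix's array software, gave the deposited signal of each probe set. Its version was not given in the sources used here. After scaling, every array's mean after trimming 2% at each end is 500, so a change in total RNA is invisible. The number of arrays limits the precision.

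Of 45101 probe sets, 64 controls were left out, which is why Actb is represented by another probe set than its control. Names came from the platform annotation, where 34945 probe sets carry 1 symbol; 34741 of these matched the RefSeq table by gene identifier. Values were analysed as log2(value + 16), which understates differences of dim genes, after leaving out the dimmest 40% by mean signal (under 39.4); 27022 probe sets were tested with limma 3.58.1 in R 4.3.3 (lmFit, eBayes with intensity trend) and Benjamini-Hochberg adjustment over all of them, with each gene read from its brightest probe set. The genotype fit had no block. A second fit held the number as a block: deviations of same-numbered cultures correlated at 0.83, 0.59 and 0.57, though those of numbers 2 and 3 also correlated across numbers (0.55 and 0.49). The contrast of number 1 with 2 and 3 and their interaction with genotype used all 6 arrays. The code was tested on simulated data. Of the gene lists, 1 is not reported here. The 34 genes, the lists and the tests were chosen with earlier results of these data known.

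Values in every array are given for genes that passed a test, whose groups do not overlap, with the 3 largest genotype or 5 largest number differences per direction, or needed to show a role; lists are given by counts and up to 3 genes of smallest p, and other names were chosen after their values were seen. Alternatives were pseudocounts of 1 and 64, no filter or one of 60%, quantile normalization, median centring, no trend, array weights, a threshold of 0.1, the block, the median over a gene's probe sets, numbers 2 and 3 alone and each array left out. Promoter windows are RefSeq's. Figures were drawn with matplotlib 3.10.9.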

Additional observations from a re-analysis of the deposited data

Results flagged for a closer look

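In 2 genes of the lists, none of them among the 34, the genotype difference itself differed between number 1 and the other numbers by the interaction term (limma, adjusted p under 0.05; 0.192% of all genes). Cap1, an actin monomer recycling protein, read 1176, 3941 and 3525 in wild type and 4266, 5358 and 5042 in the knockout, so the genotype difference was 1.85 in pair 1 against 0.44 and 0.51 in pairs 2 and 3 (difference of differences 1.37, SE 0.15, adjusted p = 0.00319). Wild-type culture 1 was by far the lowest Cap1 array, at 1176, and no other array read under 3525. In the second Cap1 probe set the genotypes overlap and the interaction did not pass (0.92, adjusted p = 0.0676). Pair differences there were 1.45, 0.54 and 0.53. Lyz2, a macrophage lysozyme, read 4219, 593 and 871 against 7191, 463 and 474, a genotype difference of 0.77 in pair 1 and of -0.35 and -0.86 in the others (1.37, SE 0.23, adjusted p = 0.0499). Sex differs between the genotypes in numbers 2 and 3 but not in number 1, so the interaction cannot separate it from culture number. Xist itself passed the interaction (-5.98, limma adjusted p = 2.17e-05).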

How the results depend on the processing

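Between the genotypes 0 of the 34 genes passed under any alternative run, the replicate block, alone and with quantile normalization or median centring (both combinations chosen after seeing the data), included; the block changed no call and gave the same median, -0.10, and the same 28 genes below 0. Leaving out 1 array at a time gave genotype medians of -0.18 to 0.082 and 7 to 30 genes below 0. By number, quantile normalization moved the median to -0.25 and median centring to -0.51, and leaving out 1 array gave 21 to 30 genes called and medians of -0.43 to -0.33. With no intensity trend 20 genes passed and Acta2, Cnn2, Cnn3, Tpm1, Tpm2, Tpm4, Vcl and Fhl2 did not. Signs turned after quantile normalization in the genotype differences of Acta2, Actb, Cnn2 and Cnn3 (0.021, 0.019, 0.023 and 0.022) and in the number differences of Acta2 (0.0053), Actg1 (0.065), Myl9 (0.032), Myh10 (0.12) and Cald1 (0.039), with array weights in Actb (0.028), and with numbers 2 and 3 alone in Actb (0.033) and Myh9 (-0.015). Leaving out 1 array at a time turned the sign of 26 of the 34 genotype differences at least once, with these ranges of log2 differences: Acta2 -0.081 to 0.033, Actb -0.11 to 0.13, Actg2 -0.53 to 0.31, Actn1 -0.21 to 0.013, Actn4 -0.21 to 0.065, Ankrd1 -0.91 to 0.51, Cnn1 -0.60 to 0.047, Cnn2 -0.12 to 0.094, Cnn3 -0.11 to 0.049, Csrp1 -0.25 to 0.12, Egr1 -0.40 to 0.13, Fhl1 -0.38 to 0.098, Fhl2 -0.032 to 0.13, Flna -0.24 to 0.035, Myh9 -0.13 to 0.14, Myl6 -0.0078 to 0.52, Mylk -0.029 to 0.19, Smtn -0.27 to 0.12, Srf -0.48 to 0.27, Tagln -0.20 to 0.12, Tagln2 -1.37 to 0.97, Tpm2 -0.097 to 0.055, Tpm3 -0.28 to 0.068, Tpm4 -0.19 to 0.032, Vcl -0.15 to 0.070 and Zyx -0.55 to 0.32. By number the sign turned for Myh10 -0.15 to 0.13 and Mylk -0.11 to 0.028.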

Other observations

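In 12 of the 16 genes with several tested probe sets, one other than the brightest had the larger genotype difference in size. A dim Zyx probe set (mean signal 143) differed by -0.82 (with the block, limma adjusted p = 0.282 and unadjusted p = 0.00123), beside -0.17 for the brightest. A Cald1 probe set with a mean signal of 13578 differed by -0.19 (with the block, limma adjusted p = 0.293 and unadjusted p = 0.00145), beside -0.10 for the brightest. The other Myh9 probe sets all lay below 0, from -0.21 to -0.061, where the brightest lay at 0.022.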
